A study of Sus scrofa with 23 samples.

Results

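Transcripts found in the oocyte, still abundant in 4-cell (4C) embryos and nearly gone by the 8-cell (8C) stage were followed through porcine pre-implantation development. Genes were taken where the in vivo Duroc (IV-D) oocyte had at least 10 fragments per kilobase of exon scaled to library depth (FPKM) and the IV-D 4C embryo at least 50 FPKM. The 4C level also had to exceed 0.25 times that of the oocyte, and the IV-D 8C level to be at most 0.05 times the 4C level. The 84 genes were 84 of the 8603 in the deposited table and 9.11% of the 922 that met the oocyte and 4C limits. Of these 84 genes, 58 carried a gene symbol and 26 only an Ensembl identifier. The genes were thus chosen by measured values of the IV-D oocyte, 4C and 8C libraries. These values, and clone values set against them, are given as description, and the other 20 libraries took no part in the choice.

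Embryos of 3 groups were followed in a table with 1 library per stage and group, 23 libraries in all: 8 IV-D, 8 NT-D and 7 NT-LW. The study also sequenced biological replicates of NT-D and IV-D oocytes, 4C and 8C embryos and blastocysts, which that table does not hold. It described its 4C replicates as relatively variable. IV-D libraries held in vivo matured Duroc oocytes and embryos flushed from inseminated Duroc sows, all with 1 Duroc boar as father. NT-D embryos were made by somatic cell nuclear transfer with nuclei of fibroblasts grown from the ear of that same boar, and NT-LW embryos with nuclei of ear fibroblasts from a boar of the Laiwu breed, both aged 1 year. The stages were MII oocyte (OC), 1-cell (1C), 2-cell (2C), 4C, 8C, morula (MO) and 2 pieces of a blastocyst cut by knife, a piece with the inner cell mass and trophectoderm (IT) and a piece with trophectoderm only (TE).

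Each clone group came from the cell line of 1 animal, so all cloned embryos were male, and the clones were cultured in vitro in PZM3 medium while IV-D embryos developed in the sow. The oocyte library labelled NT-D stood for the recipient oocytes of both clone groups, which were in vitro matured oocytes from slaughterhouse ovaries, described in the study as those of hybrid sows, although the label gives Duroc. Nuclear transfer, oocyte source, maturation, culture and embryo sex therefore cannot be told apart between clones and IV-D. Between NT-LW and IV-D the breed of the donor differs as well. With 1 library per condition there was no replicate error and no test of a difference between conditions. A gene is called higher or lower where log2(FPKM + 1) differed by at least 1 between 2 libraries, and the share of all table genes called the same way is printed beside each first count. The comparisons of NT-D and of NT-LW with IV-D share the IV-D libraries.

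The oocyte stores RNA during growth, since transcription stops before meiosis is completed and the first cleavages run on this store. Stored transcripts are later removed in waves, by decay factors that are themselves maternal and by factors made from the embryo's own genome, whose major activation in the pig falls around the 4C stage. Translation and stability of stored RNA are tied to the length of the poly(A) tail, and the libraries were made from poly(A) RNA, so that a change of tail and a change in the number of molecules cannot be told apart.

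Depth ran from 14952784 to 22991067 fragments per library (median, 18896560). Of 11 oocyte transcripts used to check the labels, the summed FPKM at 8C was 46.7 in IV-D, 339 in NT-D and 585 in NT-LW. BMP15, MOS, WEE2 and ZP4 among them met the limits that chose the genes, so their low IV-D 8C level was set by choice. The 7 label-check transcripts outside that choice summed at 8C to 29.5 in IV-D, 155 in NT-D and 362 in NT-LW. BTG4, 1 of the 7, gave 16.9, 107.8 and 290 of these sums, and the medians of the 7 were 2.04, 5.62 and 14.0. Summed FPKM of 7 trophectoderm genes in TE was 2381 in IV-D, 4006 in NT-D and 5640 in NT-LW. In IT, which also holds trophectoderm, the sums were 2732, 3156 and 3960, so that in IV-D alone IT lay above TE. Of 8 inner cell mass genes the sum was higher in IT than in TE in every group, at 166 against 35.9 in IV-D, 66.7 against 34.4 in NT-D and 72.4 against 45.9 in NT-LW. The 7 fibroblast genes of the table summed to between 72.3 and 149 in clones from 1C to 4C. In IV-D they summed to 5.09 in the oocyte, 67.6 at 1C, 5.04 at 2C and 8.28 at 4C. The part of fibroblast RNA in the values from 1C to 4C was not tested. Cumulus cell genes (4 in the table) summed to between 23.1 and 411 over the 23 libraries.

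The promoters of 5 genes are printed to show the contrast that separated most of these genes from genes kept at 8C, a low or a high number of CpG dinucleotides around the annotated start. The window runs from 250 bases before to 50 bases after the RefSeq start on Sscrofa11.1, 5′ to 3′ on the gene's strand, with each CG in capitals. BMP15 (chrX:44612872-44613171, plus strand), KPNA7 (chr3:6200799-6201098, minus strand) and NLRP9 (chr6:59941240-59941539, plus strand) have few in this window, and DNMT1 (chr2:69029630-69029929, minus strand) and USP44 (chr5:87864161-87864460, plus strand) many. USP44 was chosen after its values were seen.
BMP15: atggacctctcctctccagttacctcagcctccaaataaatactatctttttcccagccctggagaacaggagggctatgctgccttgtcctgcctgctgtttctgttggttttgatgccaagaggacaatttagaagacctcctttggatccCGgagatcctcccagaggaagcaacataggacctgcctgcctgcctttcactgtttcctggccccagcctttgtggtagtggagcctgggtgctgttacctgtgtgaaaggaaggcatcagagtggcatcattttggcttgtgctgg
KPNA7: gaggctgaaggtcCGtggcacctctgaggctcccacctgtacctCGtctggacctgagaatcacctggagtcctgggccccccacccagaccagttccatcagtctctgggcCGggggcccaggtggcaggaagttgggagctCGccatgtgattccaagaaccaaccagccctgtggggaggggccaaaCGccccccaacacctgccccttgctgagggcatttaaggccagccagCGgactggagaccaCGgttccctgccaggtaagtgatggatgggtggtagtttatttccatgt
NLRP9: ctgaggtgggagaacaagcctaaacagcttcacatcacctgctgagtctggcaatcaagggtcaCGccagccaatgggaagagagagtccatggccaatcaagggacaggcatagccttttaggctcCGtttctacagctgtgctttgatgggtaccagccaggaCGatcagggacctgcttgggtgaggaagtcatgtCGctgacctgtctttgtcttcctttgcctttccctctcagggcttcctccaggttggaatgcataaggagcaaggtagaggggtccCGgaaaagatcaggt
DNMT1: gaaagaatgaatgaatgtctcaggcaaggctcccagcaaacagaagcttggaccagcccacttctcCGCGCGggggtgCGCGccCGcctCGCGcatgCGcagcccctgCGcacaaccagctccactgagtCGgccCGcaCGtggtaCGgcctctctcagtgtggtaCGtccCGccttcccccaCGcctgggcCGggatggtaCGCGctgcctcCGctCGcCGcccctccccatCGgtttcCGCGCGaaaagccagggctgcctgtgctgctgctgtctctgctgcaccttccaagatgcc
USP44: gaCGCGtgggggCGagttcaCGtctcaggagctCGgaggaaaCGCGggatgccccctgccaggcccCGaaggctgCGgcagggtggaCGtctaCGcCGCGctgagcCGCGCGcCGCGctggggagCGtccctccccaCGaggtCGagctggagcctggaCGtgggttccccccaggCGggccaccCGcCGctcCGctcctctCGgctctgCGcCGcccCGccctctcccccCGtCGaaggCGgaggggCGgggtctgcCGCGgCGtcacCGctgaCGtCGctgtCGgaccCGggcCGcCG

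The windows hold 1 CpG for BMP15, 7 for KPNA7, 5 for NLRP9, 27 for DNMT1 and 44 for USP44. The window was set at the start of 1 RefSeq model per gene, a curated one first and otherwise the longest, and the start used in the oocyte was not measured. Other models placed a start further upstream for KPNA7, NLRP9, DNMT1 and USP44, and at that outermost start the CpG ratio of DNMT1 was 0.32 in place of 0.83. A position and a window could be matched for 51 of the 84 genes, for 393 of the 520 genes that met the same oocyte and 4C limits but kept over 0.5 times their 4C level at 8C in IV-D, and for 6806 genes of the table.

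Among the 51 genes the median ratio of observed to base-composition CpG was 0.40, against 0.83 in the 393 kept genes and 0.78 in the table. A ratio under 0.6 was found in 35 of the 51 (68.6%), in 57 of the kept genes (14.5%) and in 1935 of the table (28.4%). The median window held 8 CpG in the cleared genes and 22 in both other sets, and the median GC content was 52%, 60% and 61.7%. Low CpG windows were thus the more frequent kind among cleared genes and the less frequent kind among kept genes, while USP44 had 0.99 in this window and 0.97 at its outermost start. For 21 of the 51 genes the start used was not the outermost one. With the outermost starts, an alternative chosen after seeing the data, a ratio under 0.6 was found in 31 of the 51 (60.8%), in 63 of the kept genes (16.03%) and in 1858 of the table (27.3%). No test was made of this contrast.

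**Figure D1:**
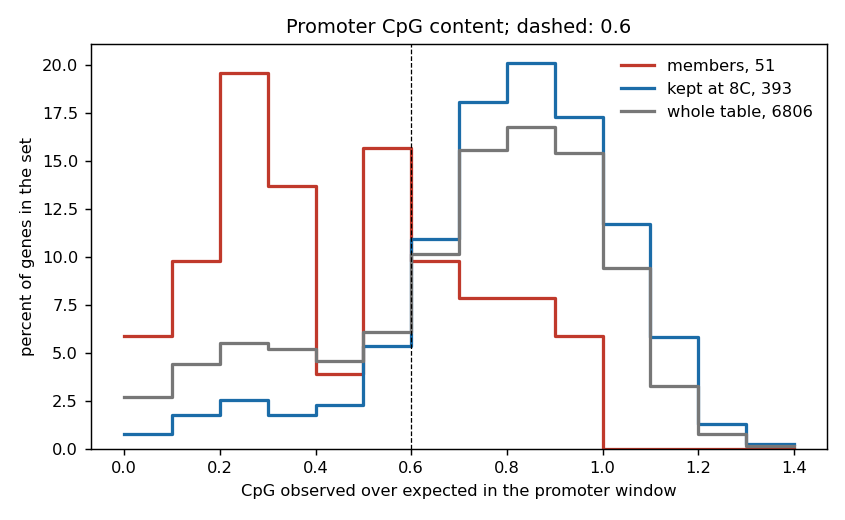
Distribution of the ratio of observed CpG to that given by base composition (horizontal axis, no unit) in the 300 bases around annotated starts, as a percentage of each set (vertical axis), for 51 cleared genes, 393 genes kept at 8C and 6806 genes of the table. Cleared genes lie mostly under 0.6 and kept genes mostly above it.

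The letters TATAAA, searched on both strands, were present in the same window in 9 of the 51 genes (17.6%), in 7.89% of kept genes and in 8.58% of the table. In the last 150 transcript bases of genes with an annotated 3′ UTR at least that long, TTTTAT or TTTTAAT on the sense strand, the letters of cytoplasmic polyadenylation elements, were present in 9 of 44 genes (20.5%), in 34.9% of 324 kept genes and in 29.4% of 5869 genes. The poly(A) signal letters AATAAA or ATTAAA were present in 30 of the 44 (68.2%), in 87.7% and in 79.2%. Where the letters were absent, this says only that they are not in that window of the annotated transcript. The 51 genes lay on 17 chromosomes, with 2 on X (3.92%, against 3.83% of the table).

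Up to the 4C stage these genes made up a large part of each library. In IV-D they took 9.91% of all fragments at OC, 9.21% at 1C, 10.5% at 2C and 6.73% at 4C, and then 0.146% at 8C. In NT-D the share was 9.22%, 9.27%, 10.2% and 5.87% at the same stages and 0.566% at 8C, and in NT-LW it was 9.57%, 10.9% and 5.18% from 1C to 4C and 0.948% at 8C. Much of this share was that of 1 gene without a symbol, ENSSSCG00000000296. In IV-D it made up 4.40 of the 9.91 percentage points at OC, 4.62 of the 9.21 at 1C, 6.81 of the 10.5 at 2C and 2.40 of the 6.73 at 4C.

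ENSSSCG00000000296 had 95286 FPKM in the IV-D oocyte, 147423 at 2C, 51863 at 4C and 549 at 8C. NT-D libraries held 78777 at OC, 32958 at 4C, 4145 at 8C and 129.7 at MO. In NT-LW it had 27716 at 4C, 7016 at 8C and 149 at MO. At 8C both clone libraries thus held several times the IV-D level of the most abundant transcript, with 1.06% of the 4C level left in IV-D, 12.6% in NT-D and 25.3% in NT-LW.

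Median FPKM over the 84 genes in IV-D was 126 at OC, 111 at 1C, 98.1 at 2C, 121 at 4C, 2.98 at 8C, 1.64 at MO, 1.54 at IT and 0.264 at TE. In NT-D it was 131, 147, 124, 135, 11.5, 16.9, 0.419 and 0.168 over the same stages. In NT-LW it was 167, 153, 121, 17.0, 3.74, 0.390 and 0.335 from 1C to TE. The 3 groups had similar medians at 4C and separated at 8C, and NT-D alone had a higher median at MO than at 8C.

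**Figure D2:**
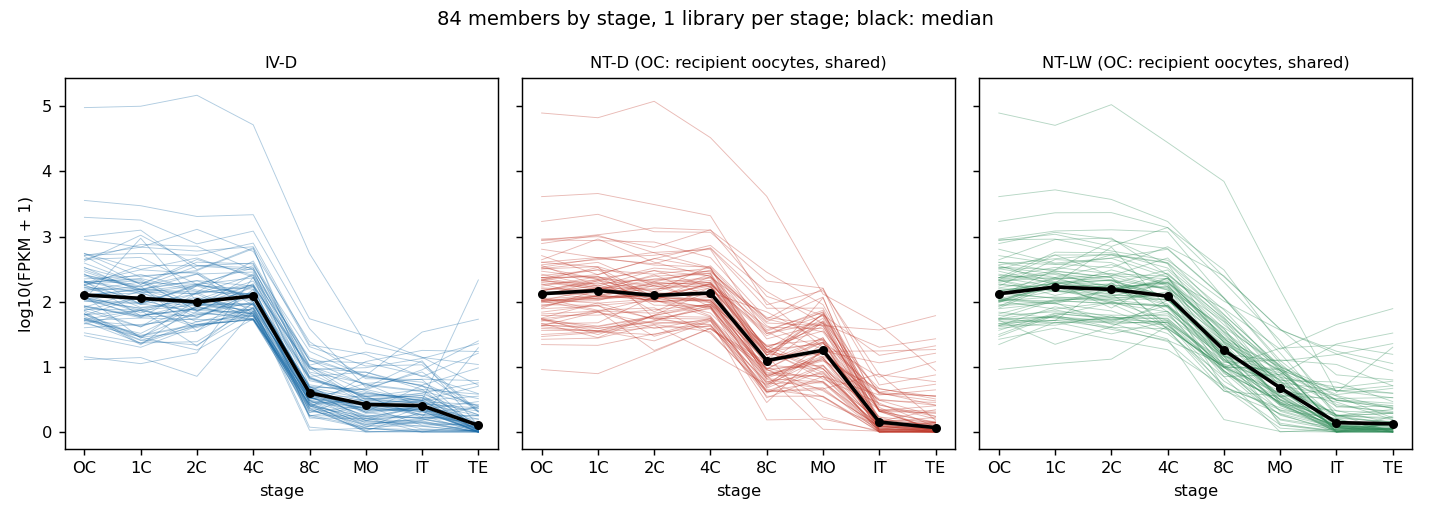
FPKM on a log axis (vertical) by stage (horizontal) in IV-D, NT-D and NT-LW, with the median over the 84 genes and their spread. The medians are 121, 135 and 121 FPKM at 4C, 2.98, 11.5 and 17.0 at 8C, and 1.64, 16.9 and 3.74 at MO.

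From 4C to 8C in the clones, libraries that took no part in the choice, all genes but MLLT11 in NT-D were called lower. In NT-D 83 of 84 were lower (28.7% of the table) and in NT-LW 84 of 84 (25.6% of the table), where the rule itself set 84 of 84 in IV-D (28.1%). Their median difference in NT-D was -3.20, and in NT-LW -2.52, on the log2(FPKM + 1) scale, against table medians of 0.13 and 0.05. It was -4.74 in IV-D by choice, with a table median of 0.25. The NT-D difference of MLLT11, -0.99, lay just short of the limit, and a pseudocount of 0.1, both other scalings and an exact binomial test on fragments each gave 84 of 84 lower in NT-D.

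The clones retained more of the 4C level than IV-D did. The 8C level was a median 2.66% of the 4C level in IV-D, 9.57% in NT-D (range, 1.05% to 49.8%) and 16.1% in NT-LW (range, 2.14% to 40.0%). At most 5% of the 4C level was left for 12 of 84 genes in NT-D (2.52% of table genes with 4C FPKM of at least 50) and for 3 in NT-LW (0.85%), while the same share in IV-D over the table was 10.6%. At most 10% was left for 45 in NT-D and 13 in NT-LW, against 103 of 991 and 36 of 1059 table genes with 4C FPKM of at least 50. Of the 84 genes, 73 in NT-D and 67 in NT-LW had that 4C level in their own group. Among these, 12 (16.4%) and 2 (2.99%) had at most 5% left, and 40 and 10 at most 10%. Scaling the libraries in either of the 2 other ways tried gave 21 genes at or under 5% in NT-D and 6 in NT-LW, with NT-LW still the group with fewer.

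The IV-D share is limited to 5% by the rule, and so part of this order is fixed by the choice of the genes. Applied to the clones' own libraries, with the NT-D oocyte for both, the same limits gave 20 genes in NT-D and 4 in NT-LW. Of the 20, 11 were among the 84 (55.0% of the 20 and 13.1% of the 84), and over the 20 the median share left was 3.70% in NT-D, by choice, 2.30% in IV-D and 12.9% in NT-LW. Of the 4, 2 were among the 84, and over the 4 the medians were 3.91% in NT-LW, by choice, 2.44% in IV-D and 6.31% in NT-D. Both lists had their lowest median share left in IV-D. The 11 and 2 genes among the 84 were held to 5% there by the rule, so these IV-D medians were in part fixed too. Genes kept in IV-D had medians of 132% in IV-D, 174% in NT-D and 152% in NT-LW.

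**Figure D3:**
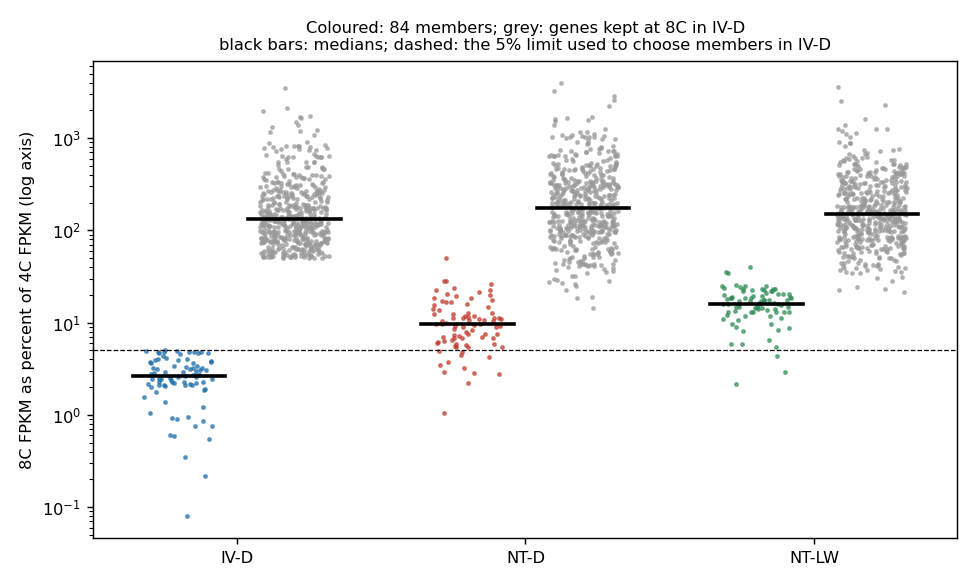
FPKM at 8C as a percentage of FPKM at 4C (log axis) for each of the 84 genes in the 3 groups, with the medians of 2.66% in IV-D, 9.57% in NT-D and 16.1% in NT-LW. The limit of 5% was set by the rule in IV-D, and 12 genes lie at or under it in NT-D and 3 in NT-LW.

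At 8C IV-D had the lowest level of the 3 groups for 80 of 84 genes, in part by choice, and NT-LW had the highest for 65 and NT-D for 19. This ranking was not counted over the table. Set against IV-D, 58 of 83 genes were called higher in NT-D (10.8% of the table) and 75 of 83 in NT-LW (16.3%), as description. Between the clone groups, whose 8C libraries did not choose the genes, 19 of 83 were lower in NT-D (3.99% of the table) and 1, MLLT11, was higher (2.15%), with a median of -0.51 against -0.08 over the table. At 4C the clone groups differed little, as 83 of 84 genes passed the limit in neither direction (0.972% of the table higher in NT-D and 3.42% lower).

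The genes just inside the 8C limit were FDFT1 with 5.00% of the 4C level, SHLD2 with 4.98% and a gene without a symbol with 4.93%. Just outside lay ISL1 and FAM227B, both with 5.07%, and DEUP1 with 5.17%.

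Among the 84 genes, 5 are known for work in the oocyte itself. WEE2, an oocyte kinase that holds CDK1 inactive, had 417 FPKM in the IV-D oocyte, 1046 at 1C, 359.7 at 2C, 331 at 4C, 7.29 at 8C, 4.54 at MO, 1.38 at IT and 0.133 at TE. The NT-D values were 438, 915, 402, 243, 34.3, 72.8, 0.421 and 0.0636, and those of NT-LW 897, 948, 258, 49.5, 8.89, 0.161 and 0.281 from 1C on. WEE2 was more than 2-fold higher at 1C than in the oocyte of its own series in all 3 groups, and at 8C it was at 2.20% of the 4C level in IV-D, 14.1% in NT-D and 19.2% in NT-LW.

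MOS, the kinase that keeps the mature oocyte at MII, had 142 FPKM in the IV-D oocyte, 173 at 1C, 34.5 at 2C, 91.8 at 4C and 2.06 at 8C. In NT-D embryos the gene had 402 at OC, 338 at 1C, 54.5 at 2C, 53.2 at 4C, 1.83 at 8C and 17.6 at MO, and in NT-LW 291, 234, 36.4, 3.21 and 2.54 from 1C to MO. MOS was thus low by 2C in IV-D and NT-D but not before 4C in NT-LW, and its log2 difference of -2.01 from the IV-D oocyte to 2C was the most negative of the 84 genes. It was 1 of the few genes as low in a clone as in IV-D at 8C, with 3.44% of the 4C level left in NT-D and 8.83% in NT-LW.

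BMP15, a growth factor secreted by the oocyte, was level in IV-D with 50.7 FPKM at OC, 55.1 at 1C, 52.0 at 2C and 53.4 at 4C, before 2.02 at 8C and 0.585 at MO. The matching NT-D levels were 121, 209, 142, 355, 48.4 and 116 over the same stages, and those of NT-LW 306, 521, 389, 56.8 and 5.90 from 1C to MO. At 4C it was 6.65-fold higher in NT-D and 7.28-fold higher in NT-LW than in IV-D, so that its 8C level in both clones was close to its IV-D level at 4C. In TE it was listed at 0 in IV-D and NT-D and at 0.131 in NT-LW.

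ZP4, a zona pellucida glycoprotein, had 199 FPKM in the IV-D oocyte, 187 at 4C and 5.77 at 8C. It had 337, 672 and 100.4 in NT-D and 652 at 4C and 114 at 8C in NT-LW. NLRP9, an NLR protein of oocytes, had 329.9 in the IV-D oocyte, 327 at 4C and 6.91 at 8C, 232, 325 and 15.7 in NT-D, and 328 at 4C and 61.7 at 8C in NT-LW. With near-equal 4C levels in the 3 groups, NLRP9 gave the largest 8C difference between clone groups, -1.91 for NT-D minus NT-LW on the log2 scale.

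A further 8 genes encode chromatin proteins or transcription factors. DNMT1, the maintenance DNA methyltransferase, was the most abundant of the genes with a symbol, with 3581 FPKM in the IV-D oocyte, 2971 at 1C, 2029.9 at 2C, 2162 at 4C, 53.6 at 8C, 28.7 at MO, 13.0 at IT and 4.22 at TE. In NT-D it had 4097, 4572, 3095, 2083, 88.7, 147, 6.58 and 4.91, and in NT-LW 5206, 3709, 1702, 240.5, 37.0, 6.53 and 5.30 from 1C on. DNMT1 cleared almost as far in NT-D (4.26% of the 4C level) as in IV-D (2.48%), while NT-LW retained 14.1%.

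H1-8, the linker histone of oocytes, went from 1971 FPKM in the IV-D oocyte to 1210.0 at 4C and 37.6 at 8C, from 1702 to 1161 and 206 in NT-D, and in NT-LW from 1369 at 4C to 199 at 8C. For this gene NT-D kept 17.8% and NT-LW 14.5%, the reverse of the order of DNMT1. SIN3A, the scaffold of a histone deacetylase corepressor, had 307 at OC, 139 at 2C, 420.3 at 4C, 11.4 at 8C and 10.5 at MO in IV-D. NT-D libraries held 172, 166, 211, 12.2 and 64.8, and NT-LW libraries 397 at 2C, 169.7 at 4C, 25.2 at 8C and 9.003 at MO. SIN3A was called higher from 2C to 4C in IV-D and lower in that step in NT-LW.

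MLLT11, named as a fusion partner of MLL in leukaemia, had 126 FPKM in the IV-D oocyte, 357 at 4C, 16.3 at 8C and 6.11 at MO. The NT-D values were 105, 138, 68.7 and 24.3, and those of NT-LW 209 at 4C, 27.3 at 8C and 3.47 at MO. With 49.8% left at 8C it was the 1 gene not called lower in NT-D, by a difference just short of the limit, where NT-LW had 13.0% left, and the NT-D excess over NT-LW at 8C was 1.30 on the log2 scale. ERFL, an ETS-family gene, peaked at 4C in IV-D (11.9 at OC, 6.15 at 2C, 70.8 at 4C and 1.59 at 8C). In NT-D embryos the gene had 49.1, 16.8, 37.9 and 10.7 and then 114 at MO, above each of its earlier NT-D levels, and in NT-LW 196 at 2C, 42.6 at 4C, 8.64 at 8C and 3.29 at MO.

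KPNA7, the importin alpha of oocytes and early embryos, and NUP214, a nuclear pore protein chosen after its values were seen, stand for nuclear transport. KPNA7 had 1000.4 FPKM in the IV-D oocyte, 1253 at 1C, 309 at 2C, 673 at 4C, 3.996 at 8C and 1.01 at MO. The matching NT-D levels were 779, 1044, 562, 331, 9.64 and 48.4, and those of NT-LW 1159.7, 911, 381, 22.3 and 2.06 from 1C to MO. The 8C values rested on 174 fragments in IV-D, 394 in NT-D and 773 in NT-LW, with 95% Poisson intervals, which cover counting error only, of 3.42 to 4.64, 8.71 to 10.6 and 20.8 to 23.9 FPKM that do not overlap. In IV-D 0.594% of the 4C level was left, in NT-D 2.91% and in NT-LW 5.86%, among the lower shares in each group.

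NUP214 had 147 FPKM in the IV-D oocyte, 129 at 4C and 6.13 at 8C, 212, 77.8 and 8.21 in NT-D, and 69.1 at 4C and 13.8 at 8C in NT-LW. Over 26 nuclear import genes of the table, 13 were higher and 3 lower at 8C than at 4C in IV-D, 11 higher and 5 lower in NT-D, and 8 higher and 5 lower in NT-LW. Of all genes, 35%, 31.4% and 28.1% were higher in this step in the 3 groups, and 28.1%, 28.7% and 25.6% lower.

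Of the ubiquitin, repair and survival genes, UCHL1, a ubiquitin hydrolase, showed a return in 1 library. It had 447 FPKM in the IV-D oocyte, 754 at 1C, 708 at 2C, 308 at 4C, 2.32 at 8C, 1.30 at MO, 2.03 at IT and then 215 at TE. In NT-D it had 888, 864, 822, 473, 52.9, 158, 4.25 and 6.51, and in NT-LW 912, 598, 430.3, 101, 35.6, 16.4 and 10.2 from 1C on. In TE the IV-D level was 32.9-fold that of NT-D and 21.0-fold that of NT-LW, from 5054, 160 and 284 fragments, with 1 library behind each. In bulk pieces of a blastocyst, fewer cells of a type and less RNA per cell cannot be told apart.

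USP44, a deubiquitinase of the spindle checkpoint, had 265 FPKM in the IV-D oocyte, 254 at 4C and 9.26 at 8C, and 2.11 at MO. It had 135, 229, 15.5 and 46.0 in NT-D, and 197 at 4C, 33.5 at 8C and 5.07 at MO in NT-LW. SHLD2, a subunit of shieldin, which protects DNA ends, had 335, 179.5, 8.94 and 3.23 in IV-D, 233, 179, 6.70 and 11.8 in NT-D, and 151, 22.5 and 5.19 from 4C to MO in NT-LW. SHLD2 kept 3.75% of the 4C level in NT-D, under its IV-D share.

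The 8 enzymes of lipid, sugar and purine metabolism kept a median 2.55% of the 4C level in IV-D, 14.4% in NT-D and 17.9% in NT-LW. CTBS, chitobiase, which trims the core of glycoprotein sugars in lysosomes, had 518 FPKM in the IV-D oocyte, 791 at 4C, 20.8 at 8C and 15.2 at TE. NT-D libraries held 508, 731, 143 and 25.9, and NT-LW libraries 697 at 4C, 248 at 8C and 7.62 at TE. Its 8C share was 2.62% in IV-D, 19.5% in NT-D and 35.6% in NT-LW.

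FDFT1, squalene synthase, had 446 FPKM in the IV-D oocyte, 231 at 4C, 11.5 at 8C, 6.33 at MO, 33.2 at IT and 52.8 at TE. The NT-D values were 317, 236, 56.6, 41.9, 35.8 and 59.96, and those of NT-LW 224, 76.9, 17.6, 43.6 and 77.1 from 4C to TE. FDFT1 was called higher in TE than at MO in IV-D and NT-LW and not in NT-D, a difference that was not tested. HPGDS, a prostaglandin D synthase, had 697 at 4C and 19.4 at 8C in IV-D, 657 and 78.2 in NT-D, and 638 and 112 in NT-LW, with 78.7 at MO in NT-D against 11.5 in NT-LW.

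ACBD7, an acyl-CoA binding protein, had 52.9 FPKM at 4C and 2.50 at 8C in IV-D, 36.8 and 9.56 in NT-D, and 24.5 and 9.82 in NT-LW, where 40.0% left was the highest of the 84 genes. UOX, urate oxidase, had 72.0 at OC, 39.9 at 1C, 137 at 2C, 60.2 at 4C and 1.48 at 8C in IV-D. In NT-D embryos the gene had 44.7, 46.4, 119, 95.6 and 16.2, so that the 2C level was the highest there as in IV-D. From the IV-D oocyte to 2C the UOX difference was 0.92 on the log2 scale, among the 4 largest rises.

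Ion transport was led by MCUB, the inhibitory subunit of the mitochondrial calcium uniporter, with 549 FPKM in the IV-D oocyte, 238 at 1C, 649.6 at 4C and 5.88 at 8C. It had 915, 995, 1273 and 119.8 in NT-D, and 1215 at 1C, 1176 at 4C and 113 at 8C in NT-LW. The share left was 0.906% in IV-D and nearly equal in the clones, 9.41% in NT-D and 9.58% in NT-LW. CNNM2, which takes part in magnesium transport, had 494 at OC, 182 at 1C, 378 at 4C and 9.08 at 8C in IV-D, 216, 260.1, 325 and 25.8 in NT-D, and 519 at 1C, 262 at 4C and 54.8 at 8C in NT-LW. CNNM2 was called lower from OC to 1C in IV-D and higher in NT-LW.

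SLC39A8, a zinc and manganese importer, was higher in NT-D than in NT-LW at 4C (91.7 against 46.2 FPKM) and at 8C (8.13 against 3.81), with 91.2 and 2.48 in IV-D. GABRR1, a GABA receptor subunit, had 136 at 4C and 3.31 at 8C in IV-D, 101 and 7.64 in NT-D, and 127 and 7.42 in NT-LW. These 2 genes were near-equal or higher in NT-D at 8C, unlike most of the 84.

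Receptors and surface proteins had a median 8C share of 2.62% in IV-D, 7.41% in NT-D and 18.1% in NT-LW. RARRES1, a gene first found as induced by a retinoid, had 196 FPKM in the IV-D oocyte, 130.3 at 4C and 3.87 at 8C, 336, 172 and 19.5 in NT-D, and 158 at 4C and 39.1 at 8C in NT-LW. GHR, the growth hormone receptor, chosen after its values were seen, had 195, 63.7 and 1.14 in IV-D, 357, 168 and 17.9 in NT-D, and 119.6 at 4C and 26.8 at 8C in NT-LW. Both had a higher 8C level in NT-LW than in NT-D.

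The 9 signalling and traffic genes kept a median 3.25% of the 4C level in IV-D, 7.17% in NT-D and 13.0% in NT-LW. PDE6C, the cone phosphodiesterase subunit, had 117 FPKM at 4C and 5.68 at 8C in IV-D, 271 and 5.99 in NT-D, and 224 and 24.5 in NT-LW, with 4.84%, 2.21% and 10.9% left. SYTL3, a Rab27 effector, had 64.2 and 0.772 in IV-D, 116 and 3.72 in NT-D, and 122 and 15.9 in NT-LW. From similar 4C levels in the clones, both stood over 3-fold higher in NT-LW at 8C on the log2(FPKM + 1) scale, with differences of -1.87 and -1.84 for NT-D minus NT-LW.

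YPEL3, a growth regulator of the Yippee family, had 165 FPKM in the IV-D oocyte, 56.1 at 2C, 123 at 4C, 3.98 at 8C, 3.44 at MO, 7.998 at IT and 24.0 at TE. The matching NT-D levels were 251, 107, 241, 17.3, 61.9, 14.0 and 20.01, and those of NT-LW 267 at 2C, 244 at 4C, 10.6 at 8C, 11.7 at MO, 9.87 at IT and 4.10 at TE. With 4.35% left it was 1 of the 3 genes at or under 5% in NT-LW. RMC1, a subunit of the Mon1-Ccz1 complex of endosomes, had 125 at OC, 176 at 4C, 8.17 at 8C and 21.7 at TE in IV-D, 103, 105, 11.9 and 17.4 in NT-D, and 113, 14.7 and 21.7 at 4C, 8C and TE in NT-LW. RMC1 was low at 8C and of similar level in TE in the 3 groups.

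PRR16, a proline-rich protein, had 237 FPKM at 4C and 3.70 at 8C in IV-D, 247 and 10.99 in NT-D, and 119 and 18.5 in NT-LW, and it was the 1 gene called different between the clone groups at 4C, by 1.05 on the log2 scale. FANK1, a protein of germ cells, had 88.6 at 4C in IV-D, 188 in NT-D and 234 in NT-LW, and 4.30, 31.4 and 26.3 at 8C.

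WDR43, a ribosome biogenesis factor, was cleared furthest in every group. It had 113 FPKM in the IV-D oocyte, 78.3 at 4C and 0.0624 at 8C, 68.0, 50.5 and 0.532 in NT-D, and 25.7 at 4C and 0.549 at 8C in NT-LW. The 8C values rested on 4, 32 and 28 fragments, with 95% Poisson intervals of 0.0170 to 0.160, 0.364 to 0.751 and 0.365 to 0.793 FPKM. The clone intervals overlap each other and lie above that of IV-D.

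GZMA, a serine protease known from cytotoxic lymphocytes, had 223 FPKM in the IV-D oocyte, 285 at 2C, 86.2 at 4C and 0.186 at 8C. It had 213, 257, 117 and 6.39 in NT-D, and 185 at 2C, 122 at 4C and 3.61 at 8C in NT-LW. The IV-D value at 8C rested on 6 fragments (0.0681 to 0.404 FPKM), and GZMA was between 0 and 0.144 FPKM in the libraries after 8C. ENSSSCG00000013607, by contrast, had 13.3 FPKM in the IV-D oocyte, 15.4 at 2C and 237 at 4C, and 37.9 in NT-D and 41.3 in NT-LW at 4C, and it had 1.78, 8.11 and 7.66 at 8C. Its 4C level stood above its 2C level in all 3 groups and was far higher in IV-D than in the clones.

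**Figure D4:**
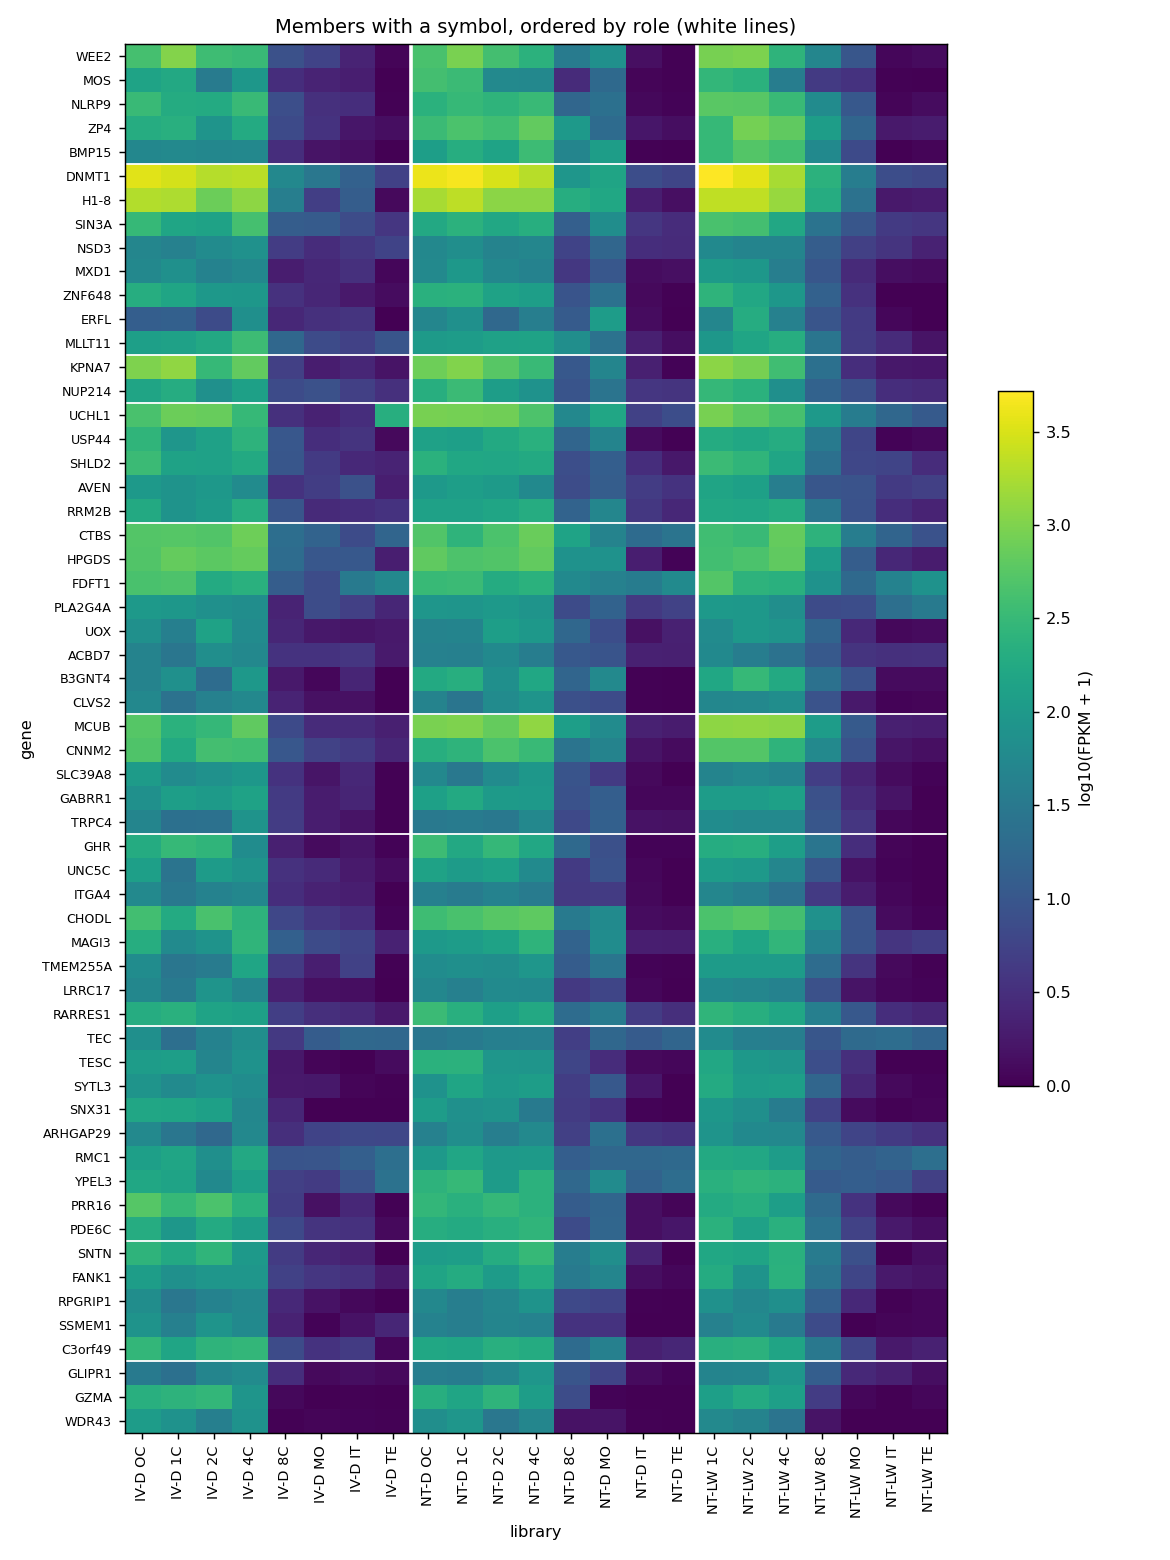
Colour gives log10(FPKM + 1) of each gene with a symbol (rows, ordered by role) in each of the 23 libraries (columns, ordered by group and stage). The columns turn from high to low between 4C and 8C in all 3 groups, the NT-D MO column is higher than the other MO columns, and UCHL1 is high again in IV-D TE.

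Before 4C the levels were not flat. In IV-D, 16 of 84 genes were called lower from OC to 1C (7.64% of the table), 13 were higher (6.59%) and 13 lower (24.6%) from 1C to 2C, and 19 were higher (34.4%) and 8 lower (12.3%) from 2C to 4C. The medians of these steps were -0.46, 0.27 and 0.24, against table medians of 0.13, -0.41 and 0.46. The median of the genes thus lay under that of the table in the step to 1C and above it from 1C to 2C. These counts moved with the scaling of the libraries, to 25 lower from OC to 1C, 31 higher and 4 lower from 1C to 2C, and 4 higher and 27 lower from 2C to 4C under median-ratio scaling, so that the direction from 2C to 4C turned. From OC to 4C in IV-D, libraries that the rule used, 9 of 84 genes were called higher (26.8% of the table) and 7 lower (15.5%). Under median-ratio scaling 4 were higher and 22 lower. RNA stored in the oocyte and RNA made by the embryo were not told apart.

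In NT-D 82 of 84 genes passed the limit in neither direction from OC to 1C (7.11% of the table higher and 1.56% lower), and 9 were lower (26.5%) and 3 higher (2.45%) from 1C to 2C and 6 lower (8.36%) and 6 higher (17.3%) from 2C to 4C. In NT-LW 12 were higher than in the shared oocyte library at 1C (7.29%) and 1 was lower (1.22%), 4 were higher (2.83%) and 3 lower (4.31%) from 1C to 2C, and 12 were lower from 2C to 4C (19.9%). Median-ratio scaling turned the NT-D step from 1C to 2C, to 30 higher and 2 lower, and gave 5 higher and 3 lower from OC to 1C in NT-LW. At 1C, 17 genes were higher in NT-D than in IV-D (18.5%) and 30 in NT-LW (20.8%). Lower than in IV-D at 1C were 4 genes in NT-D (3.44%) and 3 in NT-LW (4.12%). Under median-ratio scaling 6 were higher and 12 lower in NT-D, and 16 higher and 10 lower in NT-LW. The NT-D count at 1C was near that of the table. Of OC, 1C, 2C and 4C, the highest level fell at OC for 27, at 1C for 16, at 2C for 17 and at 4C for 24 genes in IV-D, for 8, 25, 20 and 31 in NT-D, and for 14, 33, 20 and 17 in NT-LW.

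After 8C the groups parted. Medians of the genes are over all 84 here, while those of the table are over the genes tested. In IV-D 30 of 78 genes were called lower from 8C to MO (13.6% of the table), with a median of -0.79 against -0.03. In NT-LW 72 of 83 were lower (12.4%) and 0 higher, with a median of -2.21 against 0.19. In NT-D 30 of 83 were higher (31.6%) and 16 lower (12%), with a median of 0.43 against 0.45 over the table. The NT-D share called higher was near that of the table, and median-ratio scaling gave 14 higher and 20 lower. With a minimum of 5 FPKM the IV-D count was 11 lower.

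Set against the other morulae, the NT-D MO library held more of these transcripts than the table shift gave. At MO 74 of 81 genes were higher in NT-D than in IV-D (18.7%), with a median of 2.52 against 0.22. Against NT-LW, 68 of 81 were higher (14.1%) and 0 lower, with a median of 1.92 against 0.04. NT-LW itself was higher than IV-D for 27 of 75 (11.6%), a count that was 42 with a pseudocount of 0.1 and 17 with a minimum of 5 FPKM. NT-D was the highest of the 3 groups at MO for 77 of 84 genes, a ranking not counted over the table.

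The 30 genes higher at MO than at 8C in NT-D included 3 of the 5 oocyte genes, 5 of the 8 chromatin genes, both nuclear transport genes and 5 of the 9 signalling genes. Of the 30, 23 were called lower in NT-LW in the same step and 0 higher. So were 34 of the 37 genes called in neither direction in NT-D and 15 of the 16 lower there. The fall in NT-LW was thus not particular to the 30. Of the 2521 table genes higher in NT-D, 114 were lower and 1264 higher in NT-LW. The NT-D differences were 3.29 for ERFL, 2.72 for MOS, 2.32 for SIN3A, 1.56 for UCHL1 and 1.07 for WEE2 on the log2 scale. The 16 genes lower in NT-D included CTBS, MLLT11, ZP4 and GHR.

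The NT-D MO library also had the most table genes at 1 FPKM or above, 7738, against 5931 to 7218 in the other 22 libraries. The 7 oocyte label-check genes that are not among the 84 summed to 158 FPKM in it, against 155 in NT-D 8C, 7.03 in IV-D MO and 21.9 in NT-LW MO. In NT-D, 1 gene gave 110.6 of the 158 at MO and 107.8 of the 155 at 8C. The part of the number of detected genes in the NT-D morula result was not tested, and without this library no NT-D morula value remains.

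**Figure D5:**
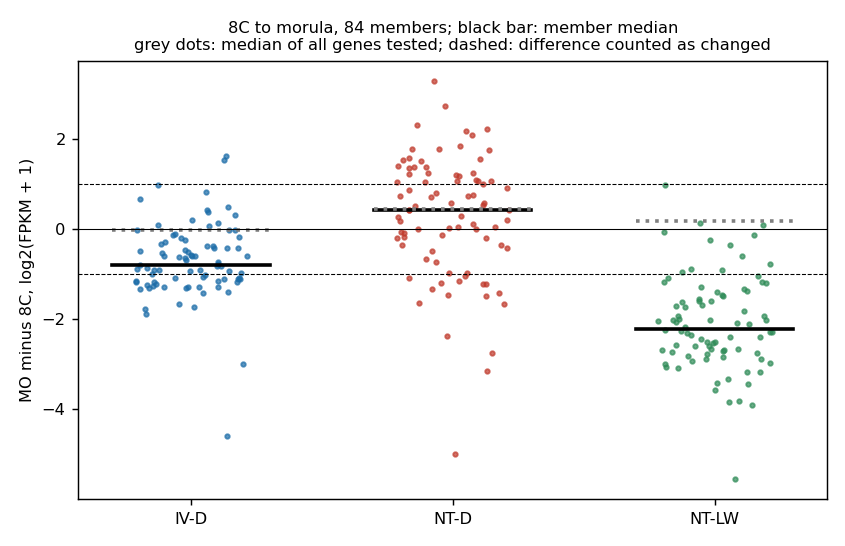
Difference in log2(FPKM + 1) from 8C to MO for each gene in IV-D, NT-D and NT-LW, with the median over all 84 genes and over the tested genes of the table. The medians of the genes are -0.79, 0.43 and -2.21 and those of the table -0.03, 0.45 and 0.19.

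In the blastocyst pieces the transcripts were low in all groups. From MO to IT 76 of 81 genes were lower in NT-D (35.1% of the table) and 54 of 73 in NT-LW (28.1%), while in IV-D 4 of 61 were lower (7.59%) and 5 higher (7.7%). From MO to TE 33 of 57 were lower (24.6%) and 6 higher (12%) in IV-D, and lower were 75 of 81 in NT-D (38.5%) and 59 of 73 in NT-LW (40.3%). In NT-D 0 genes were higher in IT (9.31%) or TE (8.66%) than at MO, and in NT-LW 2 in IT (9.1%) and 2 in TE (8.79%). In IT, IV-D had the highest level of the 3 groups for 59 of 84 genes, with a median of 1.54 FPKM against 0.419 in NT-D and 0.390 in NT-LW. Many of these values were low, as 28 genes in IV-D, 50 in NT-D and 55 in NT-LW were under 1 FPKM. At 8C IV-D was the lowest for most genes, an order set in part by the rule. The ranking in IT was not counted over the table. With IV-D as the base, 25 of 58 genes were lower in NT-D IT (15.4%) and 4 higher (9.47%), and 22 of 58 were lower in NT-LW IT (13.7%) and 6 higher (8.7%). With a minimum of 5 FPKM in either library, 4 genes were lower in NT-D and 5 in NT-LW, and from MO to TE 10 were lower in IV-D and 29 in NT-LW, with 29 also lower from MO to IT in NT-LW. At 10 FPKM or more after 8C were 12 genes in IV-D, 55 in NT-D and 14 in NT-LW, of which 11, 7 and 7 reached it in IT or TE.

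CTBS, FDFT1, RMC1 and TEC reached 10 FPKM in a blastocyst piece of every group. TEC, a tyrosine kinase chosen after its values were seen, had 3.14 FPKM at 8C, 11.05 at MO, 16.9 at IT and 16.2 at TE in IV-D, 3.88, 16.5, 10.5 and 15.1 in NT-D, and 8.85, 18.3, 20.6 and 14.5 in NT-LW. PLA2G4A, cytosolic phospholipase A2, also chosen so, reached it only in NT-LW among the blastocyst pieces, with 21.4 at IT and 32.0 at TE against 4.14 and 1.51 in IV-D and 3.09 and 4.403 in NT-D. TEC was higher at MO and in both blastocyst pieces than at 8C in every group.

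Genes of the pathways that store and remove maternal RNA were looked up in the step from 4C to 8C, and 0 of the decay and stored-RNA genes were among the 84. Of 32 mRNA decay genes 11 were lower in IV-D, and of 31 tested 7 in each clone group, with 12 in NT-D under a pseudocount of 0.1, where 28.1%, 28.7% and 25.6% of the table were lower. Of 23 genes for binding of stored RNA or the cap, 11 were lower in IV-D, 10 in NT-D and 9 in NT-LW. BTG4, the adaptor that brings the CCR4-NOT deadenylase to maternal RNA, was chosen after its values were seen. It had 6335 FPKM in the IV-D oocyte, 1169 at 4C and 16.9 at 8C, and missed the limit on the 4C level relative to the oocyte. In NT-D it had 6183, 1199 and 107.8, and in NT-LW 782 at 4C and 290 at 8C, so that this decay factor too was higher in the clones at 8C.

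Of 12 subcortical maternal complex and maternal effect genes 10 were lower in IV-D, and 9 of 11 in each clone group, with DNMT1, H1-8 and NLRP9 among them. Of 11 oocyte growth factor and zona genes 8, 9 and 8 were lower in IV-D, NT-D and NT-LW, with BMP15 and ZP4 among them. Of the cell cycle and meiosis genes, with MOS and WEE2, 7 of 27 were lower in IV-D, 8 of 26 in NT-D and 9 of 26 in NT-LW. Of 25 ubiquitin genes, with UCHL1, 5, 6 and 5 were lower, and of the mitochondrial calcium uptake genes, with MCUB, 2 of 9, 2 of 8 and 1 of 9. The shares of the maternal effect and zona lists stood well above the 28.1%, 28.7% and 25.6% of the table, and those of the cell cycle, ubiquitin and calcium lists did not. The lists hold genes that the rule chose for a low 8C level, and so their IV-D counts are in part set by it.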

How the data were processed

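RNA of pooled oocytes, embryos or blastocyst pieces was made into cDNA with SMART-Seq v4, and paired-end reads were mapped by the authors to Sscrofa11.1 with HISAT2 2.0.4 and counted per Ensembl gene with HTSeq 0.9.1. The authors deposited the result as FPKM for 8603 genes in 23 libraries, and the table's own name describes them as differentially expressed, by which comparison is not given in the sources used here, so shares of the table are not shares of all genes. DESeq is also named in the submitters' processing notes. The FPKM values of 8603 of 8603 genes were whole multiples of 1 fragment (largest deviation among values under 1000 fragments, 0.00426), which gave depth and fragments per gene. For counts of 0, a floor of 3 fragments applies.

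Libraries were compared on log2(FPKM + 1), in genes with at least 1 FPKM in either library, and a difference of at least 1 was called. No replicate was at hand, so no p-value between conditions was computed. The calling script was tested on simulated data with known changes. Python 3.11.15 with numpy 2.4.6, pandas 2.3.3, scipy 1.17.1, pysam 0.24.0 and matplotlib 3.10.9 was used. Alternatives were another pseudocount, other minimum levels and limits, the outermost annotated start, 2 other scalings and an exact binomial test on fragments.

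The genes and the lists were chosen with earlier results of these data known. Genes were named by rule, as the 12 with a symbol and the highest IV-D 4C level, in each clone group the 6 highest and 4 lowest ratios of 8C to 4C, the 6 highest in IV-D after 8C, the 4 largest differences in each direction between clone groups at 4C and at 8C and from IV-D OC to 2C, all members of a pathway list, and the 3 neighbours on each side of the 8C limit. Of genes without a symbol only 2 are printed by identifier, which departs from that rule. One further gene met the limits and is not reported here. The values of 1 gene that the naming rule gave are also not reported here.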

Additional observations from a re-analysis of the deposited data

Results flagged for a closer look

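Some genes were called in opposite directions in the same step of 2 groups. Each such difference rests on 1 library per condition and was not tested. The steps of the clone groups from OC share the oocyte library. Such calls were counted over the table only in the step to MO. For the other steps it is therefore not known whether the counts exceed those of the table. In some of the early steps the balance of higher and lower genes also turned with the scaling of the libraries.

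From OC to 1C, 4 genes were higher in NT-LW and lower in IV-D (MAGI3, TEC, TRPC4 and CNNM2). From 1C to 2C, 1 gene was lower in NT-D and higher in NT-LW (ERFL), and 1 was higher in NT-LW and lower in IV-D (ZP4). From 2C to 4C, 1 gene was higher in NT-D and lower in NT-LW (ERFL), 1 gene without a symbol was lower in NT-D and higher in IV-D, and 5 were lower in NT-LW and higher in IV-D (SIN3A, ERFL, MOS, KPNA7 and 1 gene without a symbol).

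From 8C to MO, 23 genes were higher in NT-D and lower in NT-LW, among them SIN3A, ERFL, KPNA7, BMP15, WEE2 and UCHL1, and 6 were higher in NT-D and lower in IV-D (KPNA7, TRPC4, C3orf49, TMEM255A, USP44 and RRM2B). These are of 30 genes higher in NT-D, and in NT-LW 72 of 83 genes were lower in this step. Of the 2521 table genes higher in NT-D in this step, 114 were lower in NT-LW and 71 in IV-D. TMEM255A, a membrane protein, had 3.33 and 1.02 FPKM at 8C and MO in IV-D, 11.13 and 26.9 in NT-D, and 19.7 and 2.61 in NT-LW.

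From MO to IT, 1 gene was lower in NT-D and higher in NT-LW (PLA2G4A), 4 were lower in NT-D and higher in IV-D (B3GNT4, H1-8, TMEM255A and YPEL3), and 3 were lower in NT-LW and higher in IV-D (B3GNT4, H1-8 and TMEM255A). From MO to TE, PLA2G4A was the 1 gene lower in NT-D and higher in NT-LW and also the 1 gene higher in NT-LW and lower in IV-D. In the same step 3 genes were lower in NT-D and higher in IV-D (SSMEM1, UCHL1 and YPEL3), and 2 were lower in NT-LW and higher in IV-D (UCHL1 and YPEL3).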

How the results depend on the processing

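Of 223 recalculations of 48 results, each a value or a count in 1 direction, 192 stayed within the limits set for an unchanged result and 31 moved. Median-ratio scaling moved the IV-D genes lower from OC to 1C to 25, higher from 1C to 2C to 31 and lower to 4, and higher from 2C to 4C from 19 to 4, with 27 lower in place of 8. It also moved the NT-D genes lower from 1C to 2C from 9 to 2, with 30 higher in place of 3, and higher from 8C to MO from 30 to 14, with 20 lower in place of 16, the NT-LW genes higher from OC to 1C to 5, and the genes higher than IV-D at 1C to 6 in NT-D, with 12 lower, and 16 in NT-LW, with 10 lower. The balance of higher and lower genes thus turned in the IV-D step from 2C to 4C, in the NT-D steps from 1C to 2C and 8C to MO, and for NT-D at 1C. Rescaling to the same sum gave 8 higher in IV-D and 15 lower in NT-D from 1C to 2C. Genes at or under 5% of 4C became 21 in NT-D and 6 in NT-LW under both scalings, and 45 and 13 with a limit of 10%. A minimum of 5 FPKM gave 17 genes higher in NT-LW than IV-D at MO, 11 lower in IV-D from 8C to MO, 29 lower in NT-LW from MO to IT, 29 lower in NT-LW and 10 in IV-D from MO to TE, and 4 genes in NT-D and 5 in NT-LW lower than IV-D in IT. The cause of these shifts was not tested, though a higher minimum leaves fewer genes tested. A pseudocount of 0.1 gave 42 genes higher in NT-LW than IV-D at MO and 12 mRNA decay genes lower in NT-D. A limit of 5 FPKM after 8C gave 21 genes in IV-D and 37 in NT-LW. The rule gave 139 genes with an 8C limit of 0.1, 39 with 0.025 and 45 with a 4C minimum of 100 FPKM.

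The median share left at 8C was 2.47%, 7.78% and 13.4% in IV-D, NT-D and NT-LW after rescaling to the same sum, and 2.03%, 7.70% and 13.5% under median-ratio scaling. The exact binomial test on fragments, which compares 2 libraries and not 2 conditions, moved 0 of 4 counts by over 1.5 times: the genes lower from 4C to 8C were 84 in NT-D and 84 in NT-LW, those lower in NT-D than NT-LW at 8C 24, and those higher in NT-D than NT-LW at MO 70. The outermost annotated start, chosen after seeing the data, gave a CpG ratio under 0.6 in 31 of the genes, 63 kept genes and 1858 of the table. No paired analysis was possible because each condition had 1 library, and for the same reason no library could be left out.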
